A study of Mus musculus with 6 samples.

Results

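The genes described here encode the proteins that coat, enlarge, break down and supply lipid droplets: the perilipins Plin2, Plin3, Plin4 and Plin5, the CIDE proteins Cidea, Cideb and Cidec, the lipase Pnpla2 with its inhibitor G0s2, and the fatty acid receptor Cd36. They were taken by gene symbol, and all 10 were found among the 55416 gene IDs of the count table. The 6 RNA-seq libraries are of whole liver, each from mice described as male. KO livers (n = 3) came from mice with both floxed Ephb2 alleles and the Pdgfrb-CreERT2 driver, a tamoxifen-inducible recombinase that acts in cells with an active Pdgfrb promoter, such as hepatic stellate cells and pericytes. WT livers (n = 3) came from mice with the same floxed Ephb2 alleles and no Cre, so the label WT stands for floxed controls. Mice of both genotypes were 8 to 10 weeks old and received tamoxifen by intraperitoneal injection for 5 days. They then ate a choline-deficient, amino-acid-defined diet for 8 weeks, with fat supplying 45% of calories, methionine held at 0.1% and cholesterol added at 1%. Hepatocytes keep Ephb2 in this design, and, because no group carried Cre without floxed Ephb2, the recombinase and the deletion cannot be told apart. The labels do not say how the replicates of a genotype relate beyond their number, so the p-values rest on the spread among these 6 samples, which may be technical.

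A lipid droplet is a core of triglyceride and cholesteryl ester under a single layer of phospholipid. Perilipins sit on that layer and limit the access of lipases. CIDE proteins gather where droplets touch and pass lipid from the smaller to the larger droplet. Adipose triglyceride lipase, the product of Pnpla2, takes the first fatty acid off a triglyceride, ABHD5 activates it and G0S2 inhibits it. Without choline the liver makes little phosphatidylcholine, exports little lipid in lipoproteins and fills with droplets.

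The libraries held 21160690 to 26339251 counts in KO liver and 21411113 to 23100862 in WT liver, and 17083 genes passed the filter on low counts. Ephb2 was at 6.01, 8.87 and 6.95 CPM (counts per 1e6 counts of the library, scaled by TMM factors) in KO replicates 1 to 3, against 9.46, 8.28 and 12.4 CPM in WT replicates 1 to 3, and the genotypes overlapped. edgeR's quasi-likelihood test called 0 of the 17083 genes at an adjusted p under 0.05, a share of 0%, with 886 genes at an unadjusted p under 0.05 (5.19% of those tested). DESeq2 called 7 genes and limma-voom 0, none of them among the 10 droplet genes. The acute phase gene Saa1 was high in KO replicate 2 (1857 CPM) and in WT replicates 1 and 3 (423 and 595 CPM), and between 51.6 and 80.4 CPM in the other 3 libraries. Of the 10 droplet genes 9 were tested, since Cidea did not pass the filter.

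Of the 9 tested genes, 8 had a lower mean in KO than in WT liver and G0s2 had a higher one, and edgeR called 0 of the 9. Plin5, Pnpla2 and Plin4 had an unadjusted p under 0.05 and all 3 lay lower in KO liver, beside 2.1% of all tested genes lower and 3.08% higher at that level. The median log2 fold change of the 9 was -0.21, beside -0.0048 for all genes tested, of which 51% lay below 0. Plin3, Plin5 and Pnpla2 did not overlap between the genotypes, against 11.1% of all tested genes (4.9% lower and 6.21% higher in KO liver). Scaled by library size alone, Plin3 overlapped and Plin5 and Pnpla2 did not, against 11.4% of all genes. In RNA of whole liver, fewer cells of a type and less RNA per cell cannot be told apart.

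**Figure D1:**
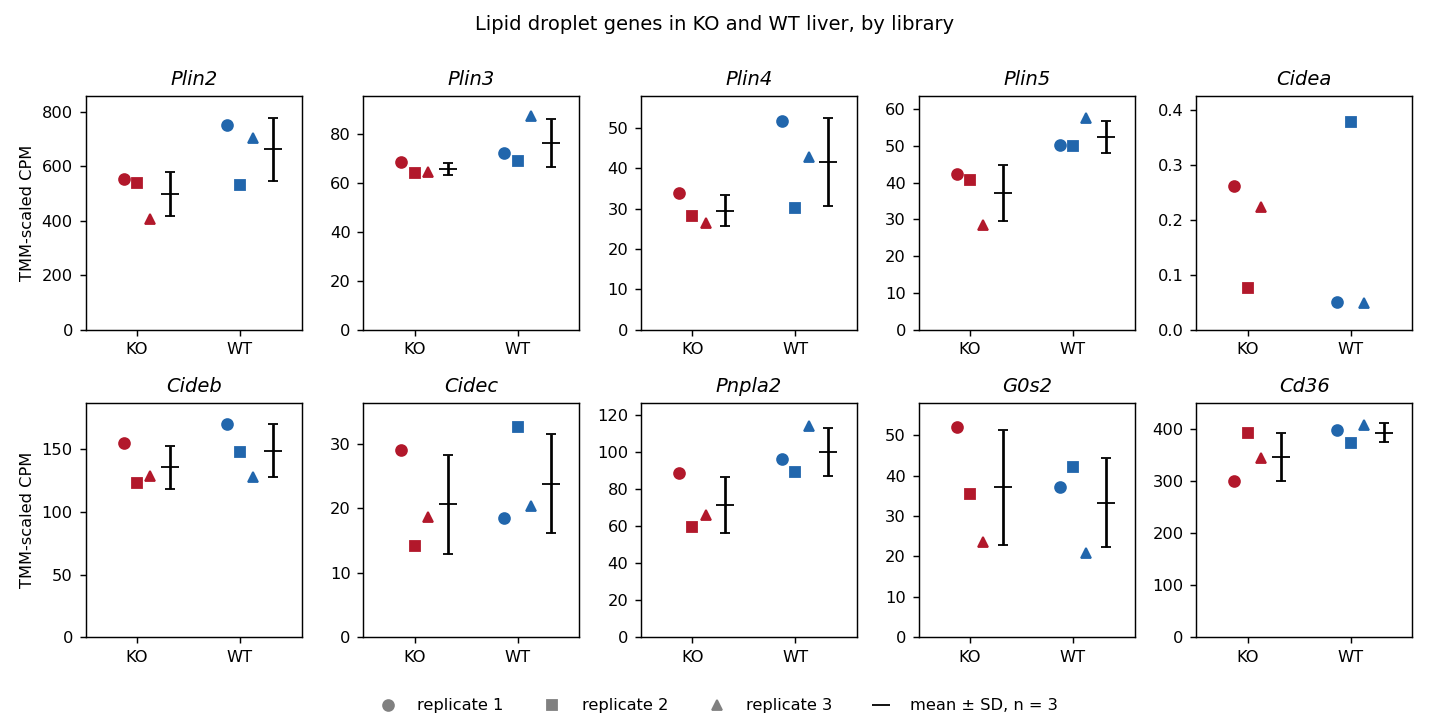
TMM-scaled CPM (y axes, each from 0) of the 10 lipid droplet genes in KO and WT liver; each symbol is a library, and black marks give the mean ± SD of 3 libraries, left out for Cidea, whose libraries held 1 to 9 counts. The KO libraries of Plin5 sit between 28.4 and 42.4 CPM, below all WT libraries at 49.9 to 57.5 CPM, while those of G0s2 and Cidec overlap the WT libraries.

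The droplet coat came first. Plin2, the coat protein of nearly all hepatocyte droplets, whose protein is degraded when it is not bound to lipid, was at 552, 538 and 405 CPM in KO replicates 1 to 3, against 750, 531 and 703 CPM in WT replicates 1 to 3. WT replicates 1 and 3 stood above all other libraries, WT replicate 2 lay within the KO range, and KO replicate 3 was the lowest. The means were 498 ± 81.2 CPM in KO and 661 ± 115 CPM in WT liver (SD, n = 3 each), a log2 fold change of -0.41 with an interval (95%) from -0.82 to 0.01 (edgeR adjusted p = 0.850). Plin5, the perilipin of oxidative tissues that ties droplets to mitochondria and binds both ABHD5 and the lipase, was at 42.4, 40.6 and 28.4 CPM in KO, against 50.1, 49.9 and 57.5 CPM in WT replicates 1 to 3. Each KO library lay below each WT library. The log2 fold change of Plin5 was -0.50 (SE 0.15, interval -0.85 to -0.15), or 0.708-fold, and it did not pass (unadjusted p = 0.0116, edgeR adjusted p = 0.850).

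Plin4, a perilipin of small droplets known mainly from adipose tissue and muscle, was at 33.9, 28.1 and 26.6 CPM in KO, against 51.7, 30.1 and 42.8 CPM in WT replicates 1 to 3. As for Plin2, WT replicates 1 and 3 were the high libraries and WT replicate 2 lay among the KO libraries. KO over WT, Plin4 stood at a log2 fold change of -0.49 (SE 0.19, interval -0.93 to -0.05; unadjusted p = 0.0340, edgeR adjusted p = 0.850). Without WT replicate 1 it was -0.31, and without WT replicate 2 it was -0.68. Plin3, a coat protein that is also found free in the cytosol and moves to nascent droplets, was at 68.7, 64.3 and 64.5 CPM in KO, against 72.4, 69.1 and 87.6 CPM in WT replicates 1 to 3. The gap between the genotypes was small, 68.7 CPM in the highest KO library against 69.1 CPM in the lowest WT library, and WT replicate 3 stood apart. The log2 fold change of Plin3 was -0.21 (interval -0.46 to 0.03, edgeR adjusted p = 0.850), and -0.11 without WT replicate 3.

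Plin4, Plin5 and Plin3 lie on the minus strand of chromosome 17 in GRCm38, at 56100591 to 56109803, 56111601 to 56117596 and 56277476 to 56292873, and Plin2 on the minus strand of chromosome 4 at 86648386 to 86670060. Exons of Plin4 share 17 bases with Hdgfl2 on the other strand. The promoter windows of Plin2 and Plin5, from 250 bases before to 50 bases after the transcript start, are shown because these were the most abundant coat gene and the coat gene with the smallest p. Both come from RefSeq on GRCm38.p6, read on the gene's strand at chr4:86670010-86670309 and chr17:56117499-56117798. Capitals mark the hexamer AGGTCA, the unit of the elements that nuclear receptors such as PPAR bind, on either strand.
Plin2: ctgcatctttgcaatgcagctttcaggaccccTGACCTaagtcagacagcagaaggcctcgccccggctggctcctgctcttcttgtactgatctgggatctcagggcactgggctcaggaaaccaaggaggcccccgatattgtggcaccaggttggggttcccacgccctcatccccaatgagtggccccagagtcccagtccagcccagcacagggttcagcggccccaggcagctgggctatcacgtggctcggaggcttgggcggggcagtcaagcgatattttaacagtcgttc
Plin5: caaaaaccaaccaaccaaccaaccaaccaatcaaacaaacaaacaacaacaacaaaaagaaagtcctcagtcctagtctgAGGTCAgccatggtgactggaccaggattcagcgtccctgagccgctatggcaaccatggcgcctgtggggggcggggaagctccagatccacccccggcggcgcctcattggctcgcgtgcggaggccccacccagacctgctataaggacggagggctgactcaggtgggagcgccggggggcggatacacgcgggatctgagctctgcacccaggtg
The hexamer stood at position -218 to -213 of Plin2, on the opposite strand, and at -170 to -165 of Plin5, where -1 is the base before the start. It also occurred in 16.3% of the 32851 windows of all genes. The windows of Plin3, Plin4, Cideb and Cidec did not hold it, and a second window of Plin5 held it after the start. That of Cd36 held it at -228 to -223, on the opposite strand. This window, at chr5:17835847-17836146, belongs to a start inside the annotated span of the gene, which reaches 17888801.

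Per kilobase of exon, Plin2 made up 78.0, 78.7 and 76.6% of the summed perilipin level in KO replicates 1 to 3, against 80.4, 76.1 and 77.5% in WT replicates 1 to 3. These shares overlapped, although the summed level itself was 201, 194 and 150 CPM per kilobase in KO and 266, 198 and 258 in WT liver. The summed level was highest in WT replicates 1 and 3 and lowest in KO replicate 3. Plin5 held 9.04 to 10.1% in KO and 9.04 to 12.0% in WT libraries, Plin3 8.74 to 11.3% in KO and 7.20 to 9.20% in WT, and Plin4 2.51 to 3.06% in KO and 2.62 to 3.37% in WT. The lengths are those of all annotated exons together, which for Plin2 is 3512 bases while its longest transcript has 1888. By the longest transcript Plin2 stood at 264 CPM per kilobase in KO and 350 in WT liver, against 142 and 188 by all exons. The order of the other 3 perilipins per kilobase (Plin5, Plin3, then Plin4) was the same by either length in WT liver, where the means were 25.2 ± 2.08, 20.2 ± 2.60 and 7.19 ± 1.88 CPM per kilobase of all exons (SD, n = 3). In KO liver Plin5 and Plin3 averaged 17.8 ± 3.65 and 17.4 ± 0.651 CPM per kilobase (SD, n = 3), a difference within their spread.

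The CIDE genes differed most in level. Cideb, the CIDE protein of normal hepatocytes, which also takes part in loading lipid onto VLDL, was at 155, 123 and 129 CPM in KO, against 170, 148 and 128 CPM in WT replicates 1 to 3. The genotypes overlapped, with WT replicate 3 among the low libraries. For Cideb the log2 fold change was -0.13 (SE 0.14, interval -0.45 to 0.18, edgeR adjusted p = 0.872). It was -0.03 without WT replicate 1, -0.07 without KO replicate 2, -0.23 without WT replicate 3 and -0.24 without KO replicate 1. Its exons share 1136 of their 1488 bases (76.3%) with Nop9 on the opposite strand of chromosome 14, and the strand setting of the counting is not given in the sources used here, so the reads of Cideb and Nop9 may not be separable. Cidec, also called Fsp27, a fat cell protein that fatty liver expresses under PPAR-gamma control, was at 29.0, 14.1 and 18.6 CPM in KO, against 18.5, 32.6 and 20.3 CPM in WT replicates 1 to 3. KO replicate 1 and WT replicate 2 were the high libraries of Cidec, and the other 4 lay between 14.1 and 20.3 CPM. Its log2 fold change was -0.21 (SE 0.29, interval -0.89 to 0.47, edgeR adjusted p = 0.896), 0.082 without WT replicate 2 and -0.54 without KO replicate 1.

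Cidea, the CIDE protein of brown fat that steatotic mouse liver can express, held 6, 2 and 5 counts in KO and 1, 9 and 1 counts in WT replicates 1 to 3. At these counts a difference between the genotypes was not detectable. With no filter on low counts its log2 fold change was 0.14 (SE 0.86, edgeR adjusted p = 0.986). WT replicate 2 and KO replicate 1 were again the 2 highest libraries, as for Cidec. Per kilobase, Cideb made up 86.8, 91.5 and 89.4% of the summed CIDE level in KO and 91.9, 84.7 and 88.7% in WT replicates 1 to 3, and Cidec 8.43 to 13.0% in KO and 8.01 to 15.0% in WT. Cidea reached at most 0.289%, in WT replicate 2. Reads of Nop9 may be counted in Cideb, so these shares carry that limit, as do the Cidec to Cideb ratio and the Cideb level given below. In GRCm38, Cideb spans 55754050 to 55758458 on chromosome 14 and Cidec 113424634 to 113435760 on chromosome 6, both on the minus strand.

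Of the lipolysis genes, Pnpla2 was at 88.6, 59.6 and 66.2 CPM in KO, against 96.5, 89.1 and 114 CPM in WT replicates 1 to 3. No KO library reached the WT range, but the gap between KO replicate 1 and WT replicate 2 was below 1 CPM. The means were 71.5 ± 15.2 CPM in KO and 100.0 ± 12.9 CPM in WT liver (SD, n = 3 each). The log2 fold change was -0.48 (SE 0.16, interval -0.86 to -0.11), or 0.715-fold, and did not pass (unadjusted p = 0.0174, edgeR adjusted p = 0.850). G0s2 was at 52.1, 35.6 and 23.6 CPM in KO, against 37.1, 42.1 and 20.9 CPM in WT replicates 1 to 3. The coefficient of variation was 38.6% in KO and 33.3% in WT liver, the genotypes overlapped, and KO replicate 1 was the highest library and WT replicate 3 the lowest. Its log2 fold change was 0.15 (SE 0.32, interval -0.59 to 0.89, edgeR adjusted p = 0.927), and it was -0.17 without KO replicate 1 and -0.10 without WT replicate 3. The interval of G0s2 spans 0.665-fold to 1.86-fold, so these libraries do not settle its direction. The promoter windows of this lipase and its inhibitor, at chr7:141454938-141455237 on the plus strand and chr1:193273139-193273438 on the minus strand (RefSeq, GRCm38.p6), are shown because the lipase lay lower and its inhibitor higher in KO liver by their means. Pnpla2 itself spans 141455198 to 141460743 on chromosome 7 and G0s2 193272161 to 193273217 on chromosome 1. Neither window held AGGTCA, and both are therefore without capitals.
Pnpla2: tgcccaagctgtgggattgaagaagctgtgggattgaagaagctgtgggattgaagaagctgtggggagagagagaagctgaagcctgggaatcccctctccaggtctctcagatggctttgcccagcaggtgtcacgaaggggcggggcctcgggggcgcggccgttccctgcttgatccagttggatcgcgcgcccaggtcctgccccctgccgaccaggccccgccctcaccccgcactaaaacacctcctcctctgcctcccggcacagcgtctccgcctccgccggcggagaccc
G0s2: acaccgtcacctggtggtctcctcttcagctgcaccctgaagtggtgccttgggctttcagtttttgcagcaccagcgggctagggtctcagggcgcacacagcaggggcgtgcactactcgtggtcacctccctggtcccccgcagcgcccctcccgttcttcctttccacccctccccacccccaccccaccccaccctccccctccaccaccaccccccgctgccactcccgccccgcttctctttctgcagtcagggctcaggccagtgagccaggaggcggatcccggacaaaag
Their share of G and C was 65.3% for Pnpla2 and 66.7% for G0s2, above the upper quartile of 61.7% over all windows. The PPAR type repeat, which is AGGTCA then any base then AGGTCA, and the sterol regulatory element core TCACNCCAC, where N is any base, were searched on both strands. They occurred in 0.0396% and 1.24% of all windows and in 0 windows of the 9 droplet genes searched. Cidea was not searched.

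**Figure D2:**
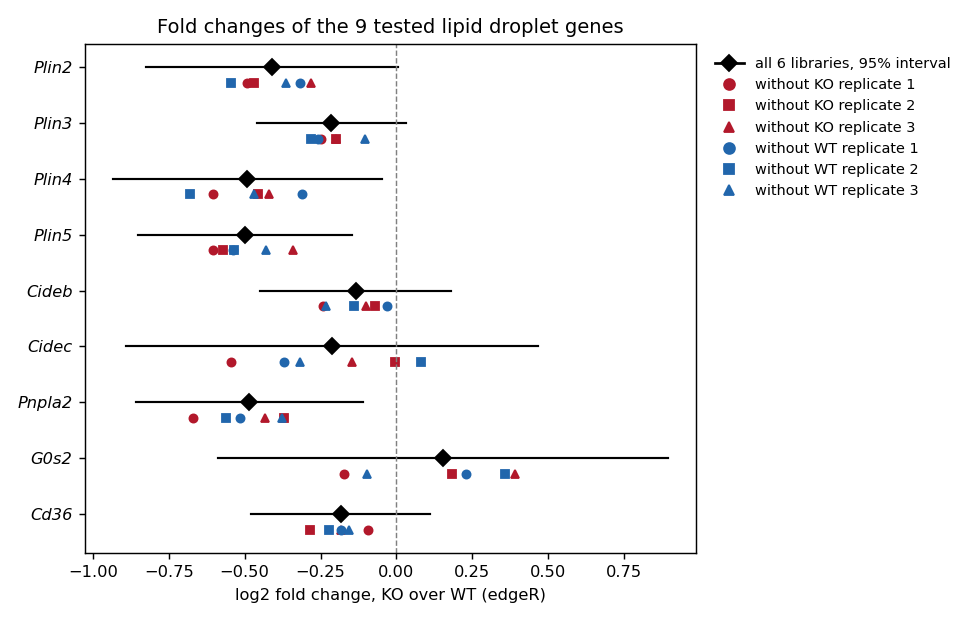
Log2 fold change of KO over WT liver (x axis, edgeR) for the 9 tested lipid droplet genes, with the 95% interval as a line and, under it, the value with each library left out. The intervals of Plin4, Plin5 and Pnpla2 lie below 0, and leaving out a library put G0s2 on both sides of 0.

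Within a library the ratio of 2 counts does not depend on the scaling. The count of G0s2 was 0.588, 0.597 and 0.357 times that of Pnpla2 in KO replicates 1 to 3, against 0.384, 0.473 and 0.183 times in WT replicates 1 to 3. KO replicates 1 and 2 had the highest ratios and WT replicate 3 the lowest, and the genotypes overlapped through KO replicate 3. The mean ratios were 0.514 ± 0.136 in KO and 0.347 ± 0.149 in WT liver (SD, n = 3 each). Cidec to Cideb was 0.149 ± 0.0364 in KO and 0.163 ± 0.0559 in WT liver, Plin2 to Plin3 7.56 ± 1.12 and 8.69 ± 1.45, and Plin4 to Plin5 0.809 ± 0.122 and 0.793 ± 0.218, each overlapping between the genotypes.

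**Figure D3:**
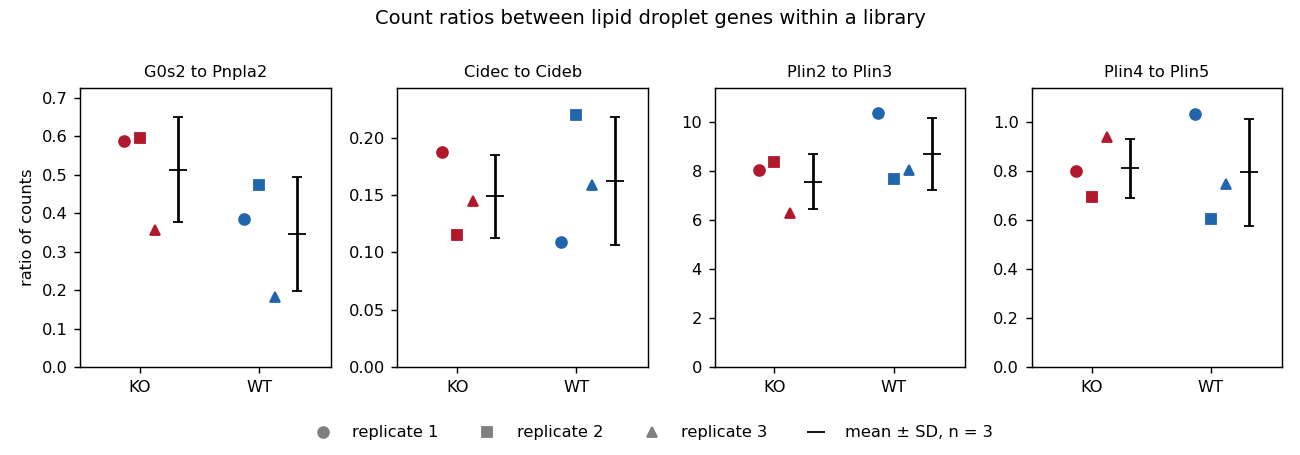
Ratio of the counts of 2 lipid droplet genes in the same library (y axes, from 0) in KO and WT liver; symbols are libraries and black marks the mean ± SD of 3. All 4 ratios overlap between the genotypes, and that of G0s2 to Pnpla2 reaches 0.597 in KO and 0.473 in WT liver.

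Cd36, the receptor that takes up long-chain fatty acids and that hepatocytes raise in steatosis, was at 300.3, 392 and 345 CPM in KO, against 398, 373 and 408 CPM in WT replicates 1 to 3. KO replicate 1 was the lowest library and KO replicate 2 lay within the WT range. Its log2 fold change was -0.18 (SE 0.13, interval -0.48 to 0.11, edgeR adjusted p = 0.850), or -0.09 without KO replicate 1 and -0.29 without KO replicate 2. Its gene spans 17781690 to 17888801 on the minus strand of chromosome 5, and it is also expressed by macrophages and capillary endothelium. Per kilobase of exon it averaged 96.4 ± 12.8 CPM in KO and 109 ± 5.07 CPM in WT liver (SD, n = 3), below Plin2 and near Cideb at 91.1 ± 11.4 in KO and 100.0 ± 14.3 in WT.

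Most of the genes shared their high libraries with others. WT replicates 1 and 3 were the 2 highest libraries for 6 of the 9 tested genes, namely Plin2, Plin3, Plin4, Plin5, Pnpla2 and Cd36. KO replicate 1 and WT replicate 2 were the 2 highest for Cidec, G0s2 and Cidea, and WT replicate 1 and KO replicate 1 for Cideb. WT replicates 1 and 3 were the WT libraries with high acute phase RNA. KO replicate 2, with the most Saa1, was the lowest library for Plin3, Pnpla2, Cideb and Cidec. From the highest library down, it ranked 5 for Plin4 and Plin5, 4 for Plin2 and G0s2, and 3 for Cd36. With the mean acute phase level as a covariate, the log2 fold changes were -0.35 for Plin2, -0.43 for Plin4, -0.47 for Plin5 and -0.51 for Pnpla2, and Cidec stood at -0.35 (SE 0.17; edgeR adjusted p = 0.807). None of these passed. The median log2 fold change of the 9 tested genes was -0.35 with this covariate, against -0.21 without it.

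**Figure D4:**
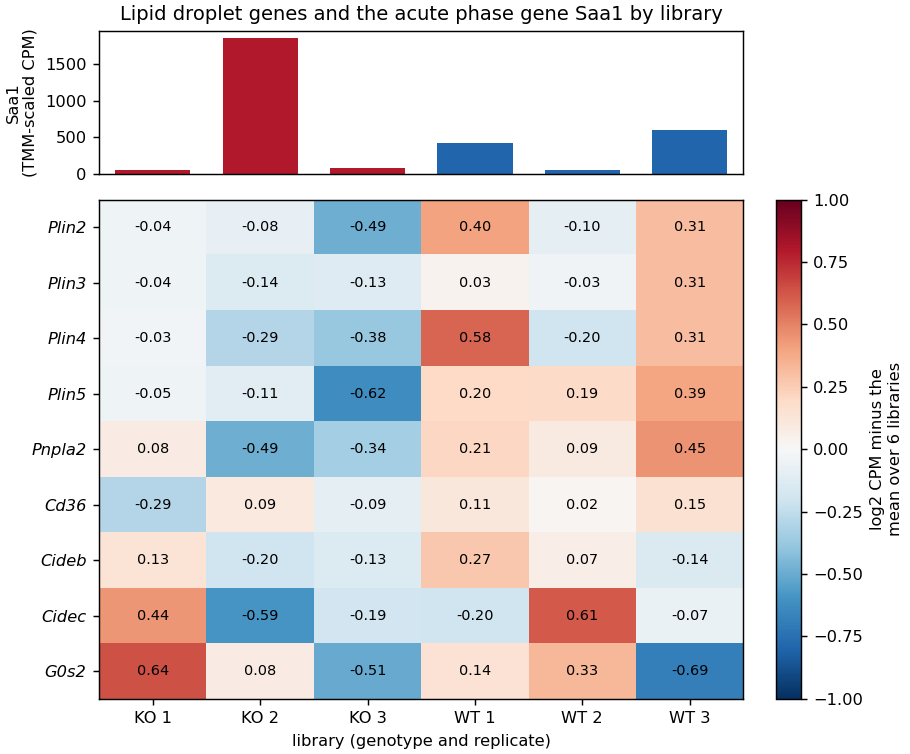
Top, TMM-scaled CPM of the acute phase gene Saa1 in each library; bottom, log2 CPM of each tested lipid droplet gene minus its mean over the 6 libraries (colour and printed value). WT replicates 1 and 3 are above the mean for Plin2 to Plin5, Pnpla2 and Cd36, and KO replicate 1 and WT replicate 2 are the 2 highest for Cidec and G0s2.

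The remaining genes of droplet turnover were read from 5 lists, and edgeR called 0 genes in each. Among 15 tested droplet coat and fusion partners, 3 were positive and 12 negative (median log2 fold change -0.06), with 0 at an unadjusted p under 0.05. The 3 with the smallest p were Aup1, a droplet protein of ubiquitin transfer (-0.18), Hilpda, a hypoxia-induced inhibitor of the lipase (-0.87), and Fitm2, an endoplasmic reticulum protein of droplet formation (-0.26, and -0.17 without KO replicate 2 or -0.41 without KO replicate 1). Hilpda was at 13.4 CPM in WT replicate 3 and between 3.40 and 5.27 CPM in the other 5 libraries, and without WT replicate 3 it stood at -0.15. Plin1, the perilipin of fat cells, held 0, 7 and 3 counts in KO and 0 in each WT library.

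Among 14 tested lipases and partners, 6 were positive and 8 negative, and the median of -0.02 took either sign under other scalings and with a library left out. Pnpla3, the paralog of the lipase whose gene SREBP-1c induces, had an unadjusted p under 0.05 in this list, at 0.654, 1.10 and 0.936 CPM in KO, against 0.644, 0.336 and 0.383 CPM in WT replicates 1 to 3. Its log2 fold change was 0.99 (SE 0.37, edgeR adjusted p = 0.850) at this low level. Abhd5, the activator of the lipase, was at 29.8, 33.7 and 30.8 CPM in KO, against 33.8, 32.6 and 37.4 CPM in WT replicates 1 to 3 (log2 fold change -0.14, SE 0.09, edgeR adjusted p = 0.850), and its log2 fold change was -0.08 without WT replicate 3. Mgll, which splits monoglycerides, stood at a log2 fold change of -0.30, between -0.58 without KO replicate 1 and -0.18 without KO replicate 3. Tfeb, a regulator of lysosomal genes, stood at 0.19, and at 0.09 without KO replicate 1.

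Of the 22 genes of fatty acid uptake and activation, 8 were positive and 14 negative (median -0.09). Angptl4, which blocks lipoprotein lipase and is induced by PPAR, was at 76.2, 49.5 and 56.8 CPM in KO, against 131, 110 and 166 CPM in WT replicates 1 to 3, without overlap. It did not pass edgeR's test (adjusted p = 0.850), but it did in DESeq2 (adjusted p = 0.000739) and in edgeR without a filter on low counts (adjusted p = 0.0422). Angptl8, an insulin-induced secreted protein, stood at a log2 fold change of 0.74 (unadjusted p = 0.0478) and at 0.46 without KO replicate 2 and 0.49 without WT replicate 3. Mfsd2a, a lysophospholipid transporter, stood at -0.40, and at -0.18 without WT replicate 3.

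Of 15 tested genes of triglyceride synthesis, 4 were positive and 11 negative (median -0.12). At an unadjusted p under 0.05, 2.1% of all tested genes lay lower and 3.08% higher in KO liver. In this list, the 4 genes at that level all lay lower in KO liver. They were Lpin1 (log2 fold change -1.01, SE 0.36) and Lpin2 (-0.64, SE 0.26), phosphatidate phosphatases of the fasted liver among other states, Agpat3 (-0.28, SE 0.11), an acyltransferase, and Dgat1 (-0.24, SE 0.10), which adds the last acyl chain. Lpin1 was at 80.5, 82.2 and 94.9 CPM in KO, against 118, 106 and 295 CPM in WT replicates 1 to 3, and stood at -0.39 without WT replicate 3. Lpin2 was at 382, 191 and 407 CPM in KO, against 491, 540 and 502 CPM in WT replicates 1 to 3, and stood at -0.37 without KO replicate 2. Among 18 transcriptional regulators of lipid metabolism, 4 were positive and 14 negative (median -0.25). Srebf1, the driver of fatty acid synthesis, was at 327, 317 and 276 CPM in KO, against 182, 203 and 141 CPM in WT replicates 1 to 3, and passed in DESeq2 (adjusted p = 0.00467) and not in edgeR (adjusted p = 0.850). Cebpb, an adipogenic and inflammatory factor, stood at a log2 fold change of -0.72 (SE 0.20), or -0.47 without WT replicate 3, and Nr1i2, the xenobiotic receptor PXR, at -0.25 (SE 0.08). Scaling by library size alone moved the median of all genes to 0.07 and turned that of the coat partners to 0.03 and of the lipases to 0.06.

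**Figure D5:**
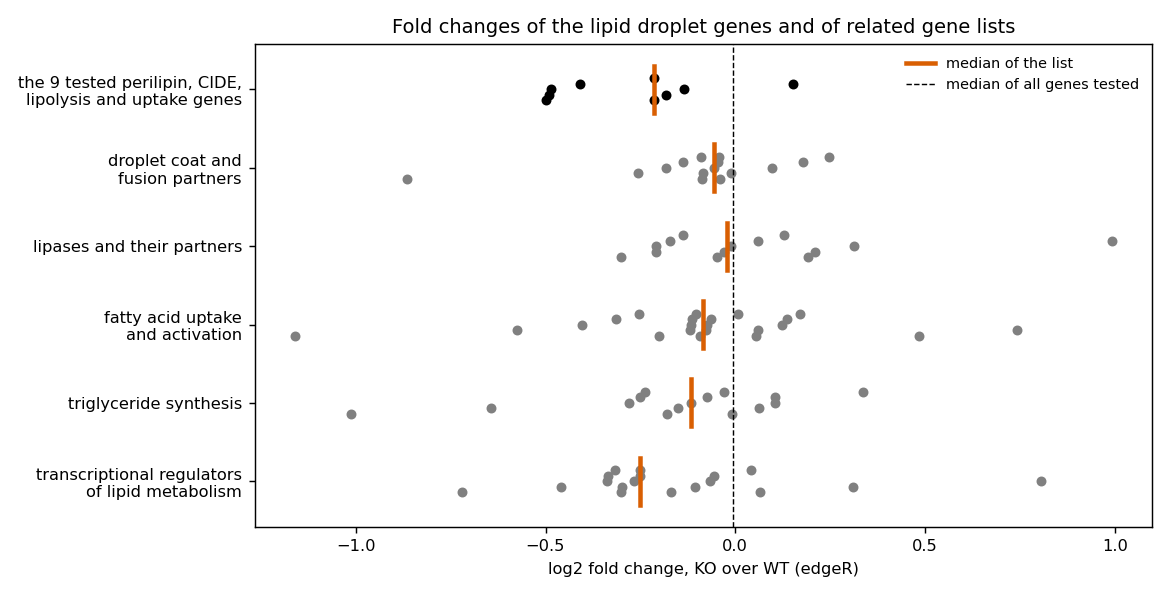
Log2 fold change of KO over WT liver (x axis, edgeR) for the 9 tested lipid droplet genes and for the tested genes of 5 related lists; each point is a gene, orange bars are list medians and the dashed line is the median of all genes tested. The 9 genes have a median of -0.21 and the lists medians from -0.25 to -0.02.

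Markers of the cells that liver tissue holds were set beside the droplet genes, and edgeR called 0 genes in each list. Several lists lay lower in KO liver by their medians, as the droplet genes did at -0.21. Of 12 macrophage and Kupffer cell markers 9 were negative, with a median log2 fold change of -0.23. Beside 2.1% of all tested genes lower and 3.08% higher, 3 had an unadjusted p under 0.05, all lower in KO liver. They were Clec4f (-1.03) and Vsig4 (-0.98), receptors of resident Kupffer cells, and Mertk (-0.40), a receptor for the uptake of dying cells. Clec4f was at 67.6, 58.5 and 24.1 CPM in KO, against 102, 60.7 and 144 CPM in WT replicates 1 to 3. It was highest in WT replicates 1 and 3 and lowest in KO replicate 3, like Plin2. Other markers of this list did not share that order. Lyz2, Gpnmb and Trem2 had log2 fold changes of 0.05, 0.04 and 0.07, and each was highest in KO replicate 2. The summed level of the list, most of which is Lyz2 and Gpnmb, was 2172 to 2629 CPM in KO and 2063 to 2909 CPM in WT liver.

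Of 12 endothelial markers 11 were negative (median -0.17). Oit3, a sinusoidal endothelial gene, was at 28.2, 25.8 and 19.2 CPM in KO, against 31.0, 28.6 and 46.0 CPM in WT replicates 1 to 3, without overlap (log2 fold change -0.53, unadjusted p = 0.0345, edgeR adjusted p = 0.850). The summed level of the list was 747 to 912 CPM in KO and 845 to 1233 CPM in WT liver. Both sums were highest in WT replicate 3, which was also the highest library for Plin3, Plin5, Pnpla2 and Cd36. KO replicate 2 had the next highest sums, at 2629 and 912 CPM. It was the lowest library for Plin3 and Pnpla2, and ranked 5 for Plin5 and 3 for Cd36. WT replicate 1, which ranked 2 for each of these genes, had sums of 2490 and 856 CPM. Of 12 stellate cell markers 9 were negative (median -0.12), with Lrat, which esterifies retinol, at -0.42 and Cygb, a globin of stellate cells, at 0.31, both at an unadjusted p under 0.05. The summed stellate markers were 1063 to 1189 CPM in KO and 1111 to 1324 CPM in WT liver.

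Of 12 hepatocyte markers 10 were negative (median -0.06). Their summed level was 75917 to 81959 CPM in KO and 78407 to 93787 CPM in WT libraries, with albumin (Alb) at 32565 to 42996 CPM in KO and 38946 to 41820 CPM in WT libraries. Of 19 acute phase genes 16 were negative (median -0.22). Of 14 adipocyte markers 8 were tested, of which 3 were positive and 5 negative (median -0.19), and the summed level of the list was 325 to 372 CPM in KO and 358 to 465 CPM in WT liver. Most of that sum was Adipor2, an adiponectin receptor that hepatocytes also express, at 258 to 303 CPM in KO and 283 to 385 CPM in WT libraries. The other 6, Adipoq, Lep, Retn, Plin1, Cfd and Ucp1, did not pass the filter. Ucp1 had 0 counts in all 6 libraries, Adipoq 0, 2 and 2 counts in KO and 0 in each WT library, and Lep 0, 4 and 0 in KO and 0 in each WT library. Retn held 0, 3 and 0 counts in KO and 1, 2 and 0 in WT replicates 1 to 3. Cfd, the adipocyte factor adipsin, was above WT in each KO library at 3, 9 and 4 counts in KO, against 0, 1 and 0 counts in WT replicates 1 to 3. The part of these cell types and of the acute phase in the values of the droplet genes was not tested.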

How the data were processed

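Gene-level read counts, whole numbers as the authors deposited them and with no scaling, were available for 6 libraries. Per the submitters' processing notes, STAR 2.7.6a, featureCounts 1.6.3 and DESeq2 1.30.0 were in use with GRCm38 or mm10, and their roles are not stated. Per the labels' protocols, polyadenylated RNA was made into directional libraries; neither the annotation release nor the strand setting is given in the sources used here. GENCODE M21 held 52135 of the 55416 IDs. The test was edgeR 4.0.16 (glmQLFit, glmQLFTest) under R 4.3.3. It used TMM scaling, a filter by filterByExpr (at least 10 counts, 15 in total), a model of genotype alone and p-values adjusted by Benjamini-Hochberg over 17083 genes, at a threshold of 0.05. Fold changes are KO over WT, intervals cover 95%, and list levels used logged CPM with a prior count of 2. Alternatives used DESeq2 1.42.0 and limma 3.58.1 among others. The procedure was tested on simulated data. Named genes were the 10 droplet genes, Abhd5, Plin1, Ephb2 and the 3 with the smallest p of each list. Dgat1, Hdgfl2, Nop9, Xist, the single marker genes and the search for AGGTCA were added after values were seen. The genes, lists and acute phase covariate were chosen with earlier results of these data known. Library pairs differed beyond sampling noise (chi-square per degree of freedom 10.4 to 69.6). A comparison of protein sequences was planned and is not reported here.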

Additional observations from a re-analysis of the deposited data

How the results depend on the processing

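Under 18 alternatives for each of the 9 tested droplet genes, 159 of 162 log2 fold changes kept their direction and 0 passed an adjusted p of 0.05. The exceptions were Cidec without WT replicate 2 (0.082) and G0s2 without KO replicate 1 (-0.17) or WT replicate 3 (-0.10). The alternatives that kept all 6 libraries refit the same counts, so a kept direction there says little. With a library left out, Cidec ranged from -0.54 to 0.082 and G0s2 from -0.17 to 0.39. The number of genes called between the genotypes was 0 in edgeR, 3 without a filter on low counts and 7 by DESeq2, and 0 to 2 with a library left out, the 2 without WT replicate 3; the cause was not tested. The number of droplet genes at an unadjusted p under 0.05 was 3. It was 1 without KO replicate 2, KO replicate 3 or WT replicate 3 and 5 without WT replicate 2, where all genes at that level numbered 899, 452, 721 and 1858. Their median of -0.21 was -0.49 without KO replicate 1, -0.35 with the acute phase covariate and -0.15 by library size alone. With the replicate number as a block, 0 genes passed, 537 had an unadjusted p under 0.05, and Plin5 stood at a log2 fold change of -0.52. Libraries of the same number did not deviate together (correlations of -0.03, -0.44 and -0.31), so the numbers were not read as pairs. With 3 libraries per genotype, the intervals of Plin2, Plin3, Cideb, Cidec, G0s2 and Cd36 span changes in both directions. Counts of 1 to 9 leave Cidea unresolved.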
